A study of Homo sapiens with 18 samples.

Results

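The ATF4 amino acid response was followed through 40 genes, namely ATF4 and 4 other transcription factors of the pathway, 7 genes of feedback and growth control, 5 enzymes of serine, glycine and folate metabolism, 3 enzymes of asparagine and proline synthesis, 7 amino acid transporters and 13 genes of tRNA charging and export. The genes were taken by symbol from the deposited table of 16575 genes, in which all 40 had a row. All 40 reached 5 CPM (counts scaled to a fixed total per library) in 1 library or more and entered the tests among 13022 genes, 30 reached 5 CPM in every library, and 5 stayed under 5 CPM in all RT-112 libraries. Expression was measured by CAGE-seq, which counts reads at the capped 5′ ends of transcripts, so that a transcript gives reads at its start whatever its length and levels of different genes are in the same unit. The 18 libraries were from 3 cell lines of human bladder cancer (CAL-29, HT-1376 and RT-112), each in 6 variants made by 2 successive lentiviral transductions. The first brought WWOX (W) or a blank control (K), the second AP-2α (A), AP-2γ (C) or a blank control (K), each from a vector with a CMV promoter, so KK is the control with both blanks, KA and KC carry AP-2α or AP-2γ with native WWOX, WK carries WWOX alone, and WA and WC carry WWOX with AP-2α or AP-2γ. All variants, KK included, had gone through transduction at a multiplicity of infection of 3, puromycin at 1 µg/mL and G418 at 400 µg/mL for 3 weeks. There was 1 library per cell line and variant, so the 3 cell lines are the replicates of a variant (n = 3). RT-112 was grown in RPMI-1640 with 10% serum, HT-1376 in high-glucose DMEM with 15% serum and CAL-29 in DMEM with 10% serum, and these media differ in amino acids, so that cell line and medium cannot be told apart.

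ATF4 is a bZIP transcription factor whose protein is made mainly when the initiation factor eIF2α is phosphorylated, by GCN2 when uncharged tRNAs accumulate, by PERK when the endoplasmic reticulum (ER) is stressed, and by PKR or HRI in other stresses. Its control is largely translational, so its transcript level need not follow its activity. ATF4 binds, often with a C/EBP partner, to C/EBP-ATF response elements and drives transcription of genes that make, import and charge amino acids, and of genes that feed back on the pathway. Since CAGE counts RNA, neither ATF4 protein nor eIF2α phosphorylation was measured here.

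Each library held 13357102 to 17958572 reads on genes, as recovered from the CPM values, and 1 read was worth 0.0526 to 0.0709 CPM. The library labelled CAL-29 KC went against its cell line label. Of 68 genes at 20 CPM or more in CAL-29 KK and under 0.5 CPM in the other KK libraries, 7 reached 10% of that level in it, against 46 of 47 genes chosen in the same way for HT-1376. It was left out of the comparisons of cell lines and of the WWOX effect, and its values are given apart. The libraries labelled with WWOX held WWOX at 18.4 to 23.1 CPM in RT-112 and HT-1376, against 16.9 to 26.0 CPM in those without, and in CAL-29 it stood at 155 CPM in WK, 69.3 in WA and 62.4 in WC against 63.7 CPM in KK. A vector transcript starts in vector sequence, and whether its reads were counted on the gene is not given in the sources used here, so these WWOX levels neither pass nor fail a label. The library labelled RT-112 WA held TFAP2C, the gene of AP-2γ, at 179.9 CPM against 56.2 CPM in WK, and TFAP2A, the gene of AP-2α, at 25.3 CPM against 20.3 CPM. In reads, TFAP2C was at 3218 in WA, 4934 in KC and 2368 in WC, against 1046 in KK, 939 in KA and 1032 in WK. TFAP2A was at 453 reads in WA, against 889 in KA and 325 in KK. By these reads RT-112 WA resembled the AP-2γ libraries, against its AP-2α label, and whether it was mislabelled is not known. In HT-1376, TFAP2A was at 1094 reads in WA, against 1341 in WK, 1049 in KK and 1774 in KA. HT-1376 WA thus showed no rise of TFAP2A over WK, and its TFAP2C was at 1534 reads against 1203 in WK. In CAL-29, TFAP2A was at 1589 reads in WA, against 1116 in WK, 632 in KK and 902 in KA. All WA libraries are used as labelled below. Epithelial markers (EPCAM, CDH1, KRT8, KRT18 and KRT19) summed to 3863 to 10132 CPM, and the 5 leukocyte, endothelial and fibroblast markers in the table (CD14, CDH5, COL1A1, COL1A2 and ACTA2) to 4.21 to 64.9 CPM.

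The binding sequence of the pathway was looked for in the promoters of the members, taken from RefSeq (GRCh38.p14) as 250 bases before to 50 bases after each gene's start, which matched 32 of the 40 genes. The core of the C/EBP-ATF response element was searched as TGATGNAA on both strands, and 10 of the 32 promoters (31.2%) held it, against 163 of the 10033 tested genes with a promoter (1.62%) and 1003 of all 27305 promoters (3.67%). The 10 were CHAC1, ASNS, SLC3A2, SLC7A1 and the synthetase genes AARS1, IARS1, MARS1, NARS1, TARS1 and CARS1. The members were picked as genes of the ATF4 response, so a share above that of all genes does not test the list. The AP-2 half-site pair GCCNNNGGC, which reads the same on both strands, was in 10 of the 32 (31.2%) and in 32.8% of the tested genes with a promoter. The 6 stretches below are those of the members with the element that differed most between cell lines, read 5′ to 3′ along the gene, with the match in capitals (on the opposite strand in TARS1, AARS1, IARS1 and CHAC1). They are ASNS, chr7:97872439-97872506 (minus strand), TARS1, chr5:33440957-33440984 (plus strand), AARS1, chr16:70289656-70289723 (minus strand), IARS1, chr9:92293698-92293740 (minus strand), NARS1, chr18:57621805-57621832 (minus strand) and CHAC1, chr15:40953232-40953299 (plus strand).
ASNS: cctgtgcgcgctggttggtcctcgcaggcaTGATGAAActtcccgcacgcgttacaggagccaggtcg
TARS1: cgcctttcgaTTGCATCAgctggtccag
AARS1: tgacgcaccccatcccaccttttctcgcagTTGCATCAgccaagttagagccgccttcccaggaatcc
IARS1: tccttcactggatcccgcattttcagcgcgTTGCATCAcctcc
NARS1: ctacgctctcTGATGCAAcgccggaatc
CHAC1: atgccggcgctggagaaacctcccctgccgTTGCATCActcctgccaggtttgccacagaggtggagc
The match began 68 bases before the RefSeq start in ASNS, 187 in AARS1, 13 in IARS1 and 209 in CHAC1, and lay just after it in TARS1 and NARS1. The gene positions printed below are those of GENCODE, which start further upstream, so the 6 matches lie within the GENCODE spans of these genes. A match describes letters and is not a measured binding site.

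Most of the 40 genes were lowest in RT-112 and highest in CAL-29, while the CPM of ATF4 itself overlapped between the 3 lines. To ask how the levels differed between cell lines, limma was fitted to log2(CPM + 0.5) over 17 libraries with terms for the variant and the cell line, and p-values were adjusted by Benjamini-Hochberg over 13022 genes with a threshold of 0.05. A difference in this and the following paragraphs is on that log2 scale, which understates the change of genes at low CPM. In HT-1376 against RT-112, 29 of the 40 genes were higher and 2 lower, beside 42.7% and 19.2% of all genes tested. In CAL-29 against RT-112, 34 were higher and 1 lower, beside 56.2% and 15.3%. In CAL-29 against HT-1376, 26 were higher and 2 lower, beside 43.4% and 17.6%. The median difference of the 40 genes was 1.16, 2.32 and 0.90 in these comparisons, against 0.43, 0.84 and 0.47 for all genes tested, so part of the difference lay in a shift of the whole table. After TMM scaling, which removes most of that shift (median of all genes 0.05, 0.12 and 0.11), 19 members were higher and 6 lower in HT-1376 against RT-112 (all genes 29.8% and 29.1%), 29 and 4 in CAL-29 against RT-112 (37.2% and 32.2%), and 18 and 3 in CAL-29 against HT-1376 (30.7% and 26.4%), with member medians of 0.75, 1.54 and 0.52. The libraries of a line are variants of the same cells, so these p-values cover the spread between variants and not between cultures of a line.

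**Figure D1:**
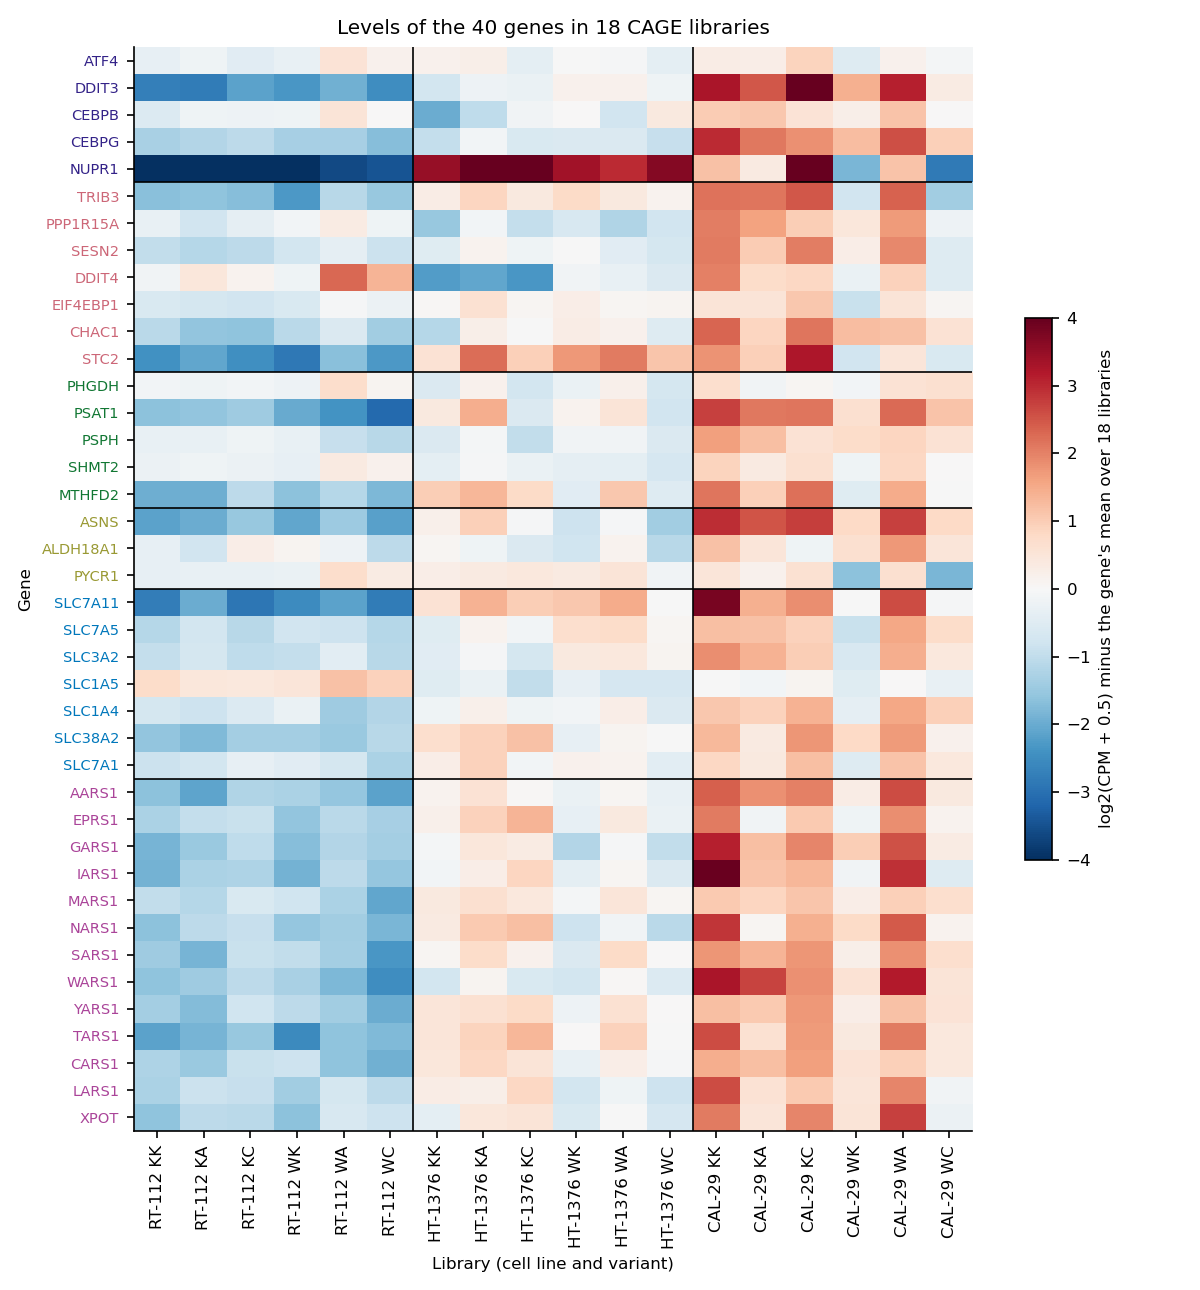
Levels of the 40 genes in the 18 libraries, as log2(CPM + 0.5) minus the mean of the gene over the 18 libraries, with colours ending at -4 and 4. Rows are grouped by role (from the top: transcription factors, feedback and growth control, serine, glycine and folate enzymes, asparagine and proline enzymes, amino acid transporters, tRNA charging and export), and most rows are blue in RT-112, pale in HT-1376 and red in CAL-29 KK and WA, with paler colours in CAL-29 KA, WK and WC.

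Among the transcription factors, ATF4 (ENSG00000128272.15, chr22:39519695-39522683) did not pass the test between any of the lines on the CPM scale. In RT-112 ATF4 ranged from 144 (KC) to 288 CPM (WA) with a median of 167 CPM, and in HT-1376 from 148 (WC) to 231 CPM (KA) with a median of 191 CPM. CAL-29 held 240.4 CPM in KK, 234 in KA, 136 in WK, 221 in WA and 185 in WC. The 3 ranges overlapped, and the differences were 0.01 ± 0.17 (SE, adjusted p = 0.962) in HT-1376 against RT-112, 0.04 ± 0.19 (SE, adjusted p = 0.851) in CAL-29 against RT-112 and 0.03 ± 0.19 (SE, adjusted p = 0.893) in CAL-29 against HT-1376. Relative to the shift of the whole table ATF4 was lower in CAL-29 than in RT-112, with -0.75 (adjusted p = 0.00526) after TMM scaling, and with adjusted p = 7.67e-04 by DESeq2 and 0.00791 by edgeR. DDIT3 (ENSG00000175197.12, chr12:57516588-57521737), which encodes CHOP, a stress factor induced through ATF4, did not follow that pattern. The RT-112 libraries held from 4.31 (KA) to 8.22 CPM (WA) with a median of 5.79 CPM, and those of HT-1376 from 19.4 (KK) to 36.5 CPM (WA) with a median of 28.5 CPM. The CAL-29 values of DDIT3 were 316 CPM in KK, 183 in KA, 88.7 in WK, 284 in WA and 41.0 in WC. The 3 ranges were apart, in the order RT-112, HT-1376 and CAL-29, and DDIT3 was higher by 4.53 ± 0.39 (SE, adjusted p = 4.00e-07) in CAL-29 than in RT-112. NUPR1 (ENSG00000176046.9, chr16:28532708-28539008), a small stress-induced chromatin protein, had the widest range of the 40 genes. NUPR1 was read at 0.32 (KC) to 1.93 CPM (WC) with a median of 0.805 CPM in RT-112, and at 209.7 (WA) to 579 CPM (KA) with a median of 316 CPM in HT-1376. Among the CAL-29 libraries NUPR1 was at 59.1 CPM in KK, 33.1 in KA, 6.91 in WK, 57.1 in WA and 3.21 in WC. In RT-112 these levels stand for 6 to 32 reads, and NUPR1 was highest in HT-1376, with 7.94 ± 0.58 (SE, adjusted p = 5.92e-08) against RT-112, while CAL-29 was lower than HT-1376 by 4.13 on the log2 scale (adjusted p = 7.99e-05). CEBPG (ENSG00000153879.9, chr19:33373685-33382686), a C/EBP partner of ATF4, ranged from 4.88 (WC) to 7.96 CPM (KC) with a median of 6.59 CPM in RT-112 and from 8.62 (KK) to 15.7 CPM (KA) with a median of 11.2 CPM in HT-1376, and stood at 138 CPM in KK, 75.6 in KA, 41.3 in WK, 105 in WA and 33.7 in WC in CAL-29, which was higher by 2.63 ± 0.27 (SE, adjusted p = 2.72e-06) than HT-1376. CEBPB, a further C/EBP factor, was higher in CAL-29 than in HT-1376 by 1.31 ± 0.36 (SE, adjusted p = 0.00649), and its difference between HT-1376 and RT-112 passed after TMM scaling, where HT-1376 was lower, at -0.90 (adjusted p = 0.0343).

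**Figure D2:**
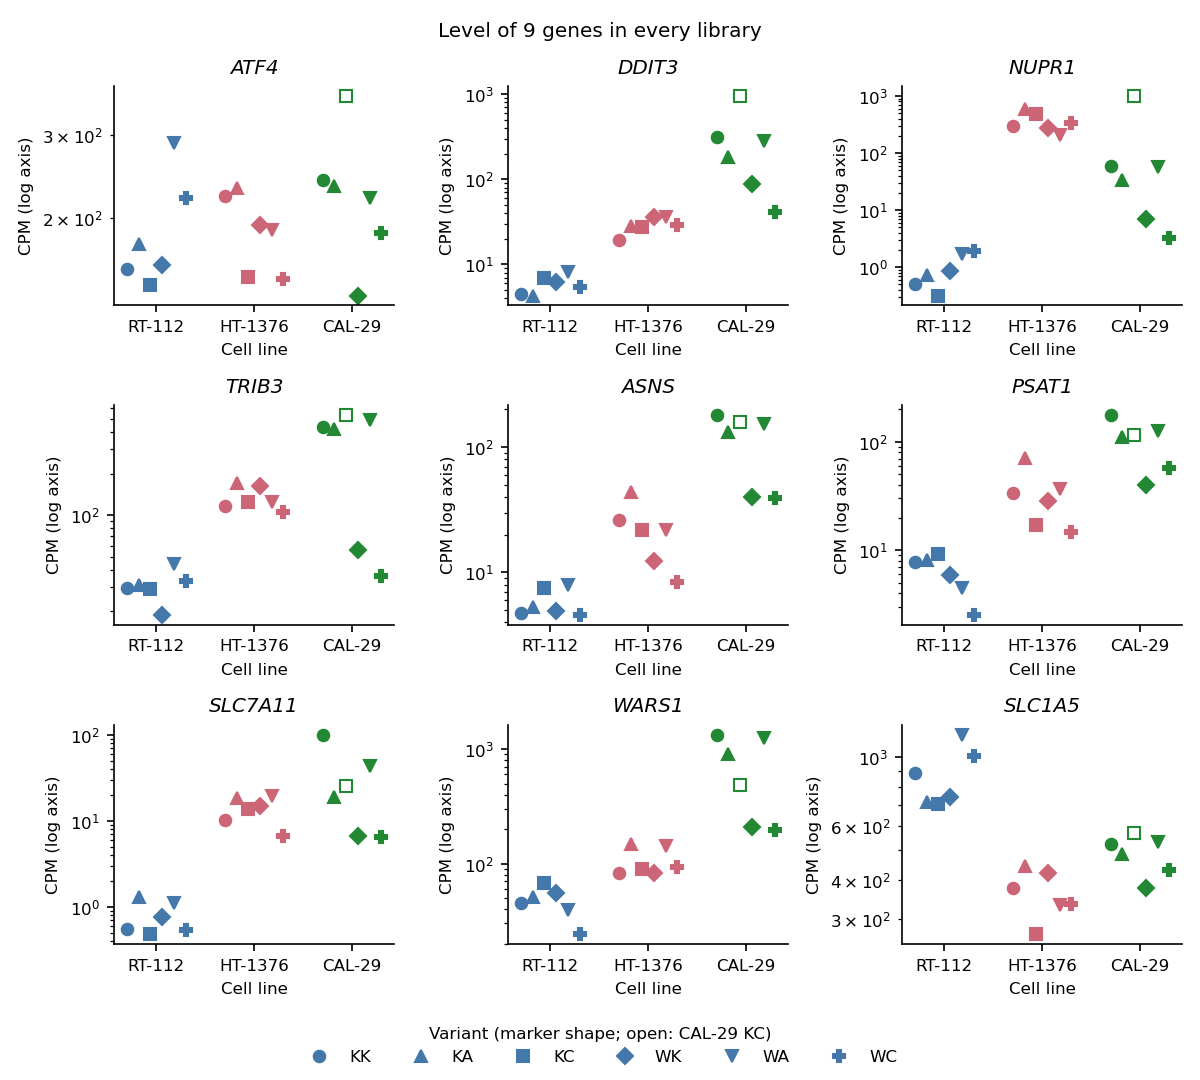
CPM of 9 genes in every library on log axes, by cell line, with a marker shape for each variant and an open square for the library labelled CAL-29 KC. ATF4 overlaps between the lines, DDIT3, ASNS, PSAT1 and WARS1 step up from RT-112 to CAL-29 KK, NUPR1 is highest in HT-1376 and SLC1A5 in RT-112, and within CAL-29 the WK and WC libraries are the low ones for DDIT3, NUPR1, TRIB3, ASNS, PSAT1, SLC7A11 and WARS1.

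The genes of feedback and growth control were higher in CAL-29 than in RT-112 with the exception of DDIT4, though EIF4EBP1 and PPP1R15A were no longer called after TMM scaling and EIF4EBP1 then lay on the other side of 0. Of the 7 genes, 4 were higher and 1 lower in HT-1376 against RT-112 (2 and 2 after TMM scaling), 6 were higher and 0 lower in CAL-29 against RT-112 (4 and 0 after TMM scaling), and 4 were higher and 1 lower in CAL-29 against HT-1376 (4 and 1 after TMM scaling). The shares of all genes in the same order were 42.7%, 56.2% and 43.4% higher and 19.2%, 15.3% and 17.6% lower before that scaling. TRIB3 (ENSG00000101255.11, chr20:362835-397559), a pseudokinase that restrains ATF4, was lowest in RT-112. In RT-112 TRIB3 ranged from 18.8 (WK) to 44.05 CPM (WA) with a median of 30.4 CPM, and in HT-1376 from 104 (WC) to 172 CPM (KA) with a median of 124 CPM. CAL-29 held 432 CPM in KK, 422 in KA, 55.9 in WK, 493 in WA and 36.2 in WC. CAL-29 WK and WC lay below all HT-1376 libraries and the other CAL-29 libraries above them, and CAL-29 did not pass the test against HT-1376, with 0.43 ± 0.50 (SE, adjusted p = 0.471). CHAC1 (ENSG00000128965.13, chr15:40952962-40956512), a glutathione-degrading enzyme, is among the promoters shown above. The RT-112 libraries held from 5.24 (KC) to 11.1 CPM (WA) with a median of 6.92 CPM, and those of HT-1376 from 7.5 (KK) to 21.1 CPM (WK) with a median of 17.9 CPM. The CAL-29 values of CHAC1 were 86.3 CPM in KK, 30.9 in KA, 40.4 in WK, 39.2 in WA and 25.4 in WC. All CAL-29 libraries were above those of the other lines, with 2.43 ± 0.32 (SE, adjusted p = 1.78e-05) against RT-112. SESN2 (ENSG00000130766.5, chr1:28259518-28282491), a sensor that restrains the growth kinase mTORC1, was closer between the lines. SESN2 was read at 8.94 (KA) to 15.8 CPM (WA) with a median of 10.5 CPM in RT-112, and at 12.4 (WC) to 22.3 CPM (KA) with a median of 16.2 CPM in HT-1376. Among the CAL-29 libraries SESN2 was at 86.8 CPM in KK, 41.5 in KA, 24.4 in WK, 77.5 in WA and 14 in WC. It was higher in CAL-29 than in RT-112 by 1.79 ± 0.35 (SE, adjusted p = 3.89e-04) and HT-1376 did not pass the test against RT-112, with 0.57 ± 0.32 (SE, adjusted p = 0.138). STC2 (ENSG00000113739.10, chr5:173314723-173328447), a secreted glycoprotein induced by ER stress, was low in RT-112. In RT-112 STC2 ranged from 1.09 (WK) to 3.13 CPM (WA) with a median of 1.76 CPM, and in HT-1376 from 16.7 (KK) to 53.5 CPM (KA) with a median of 31.4 CPM. CAL-29 held 39.6 CPM in KK, 21.7 in KA, 6.35 in WK, 15.6 in WA and 7.14 in WC. It was higher in HT-1376 than in RT-112 by 3.74 ± 0.36 (SE, adjusted p = 1.11e-06) and lower in CAL-29 than in HT-1376 by 1.14 on the log2 scale (adjusted p = 0.0214), a call that was lost without any 1 of the variants KA, WK, WA or WC (adjusted p = 0.051 to 0.115) and with the library labelled CAL-29 KC (0.331). PPP1R15A, the phosphatase subunit that reverses eIF2α phosphorylation, was higher in CAL-29 than in HT-1376 by 1.96 ± 0.37 (SE, adjusted p = 5.52e-04), and EIF4EBP1, an inhibitor of cap-dependent translation, was higher in both other lines than in RT-112, by 0.69 ± 0.21 (SE, adjusted p = 0.0105) and 0.61 ± 0.22 (SE, adjusted p = 0.0245), with 0.28 (adjusted p = 0.29) and -0.18 (adjusted p = 0.513) after TMM scaling. DDIT4 was lower in HT-1376 than in RT-112 by 1.93 on the log2 scale (adjusted p = 0.00399), and its values are given with the WWOX effect.

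The biosynthetic enzymes did not all follow the lines in the same way. Of the 5 genes of serine, glycine and folate metabolism, 2 were higher and 0 lower in HT-1376 against RT-112 (2 and 2 after TMM scaling), 4 were higher and 0 lower in CAL-29 against RT-112 (3 and 1 after TMM scaling), and 4 were higher and 0 lower in CAL-29 against HT-1376 (2 and 0 after TMM scaling). Of all genes tested, 42.7%, 56.2% and 43.4% were higher in these comparisons and 19.2%, 15.3% and 17.6% lower, with the shares after TMM scaling as given above. PHGDH (ENSG00000092621.13, chr1:119648411-119744218), the enzyme that opens serine synthesis, was at overlapping levels in the 3 lines. The RT-112 libraries held from 111 (WK) to 208 CPM (WA) with a median of 118 CPM, and those of HT-1376 from 77.2 (KC) to 146 CPM (WA) with a median of 95.7 CPM. The CAL-29 values of PHGDH were 205 CPM in KK, 116 in KA, 119.8 in WK, 189.8 in WA and 199 in WC. PHGDH passed the threshold in CAL-29 against HT-1376, with 0.59 ± 0.21 (SE, adjusted p = 0.0256), a call that was lost after TMM scaling, at 0.22 (adjusted p = 0.409), by edgeR, DESeq2 and limma-voom, and without variant KK or WC, while after that scaling PHGDH was lower than in RT-112 in HT-1376, at -0.76 (adjusted p = 0.00483), and in CAL-29, at -0.55 (adjusted p = 0.036). PSAT1 (ENSG00000135069.14, chr9:78297125-78330093), the next enzyme of the same route, differed between the 3 lines. PSAT1 was read at 2.53 (WC) to 9.14 CPM (KC) with a median of 6.88 CPM in RT-112, and at 14.8 (WC) to 70.6 CPM (KA) with a median of 31.0 CPM in HT-1376. Among the CAL-29 libraries PSAT1 was at 175 CPM in KK, 111 in KA, 39.9 in WK, 125 in WA and 57.6 in WC. It was higher by 2.22 ± 0.30 (SE, adjusted p = 2.36e-05) in HT-1376 than in RT-112 and by 3.80 ± 0.32 (SE, adjusted p = 3.49e-07) in CAL-29 than in RT-112. PSPH, the last enzyme of serine synthesis, was higher in CAL-29 than in RT-112 by 1.502 ± 0.22 (SE, adjusted p = 4.65e-05), and MTHFD2, a mitochondrial folate enzyme, was higher in both other lines than in RT-112, by 2.12 ± 0.31 (SE, adjusted p = 4.79e-05) and 2.48 ± 0.33 (SE, adjusted p = 1.81e-05). SHMT2, which makes glycine from serine in mitochondria, was higher in CAL-29 than in HT-1376 by 0.74 ± 0.19 (SE, adjusted p = 0.00459), or 0.36 (adjusted p = 0.117) after TMM scaling.

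ASNS (ENSG00000070669.17, chr7:97851677-97872542), asparagine synthetase, whose promoter stretch is shown above, had the largest difference of the biosynthetic enzymes in CAL-29 against RT-112. In RT-112 ASNS ranged from 4.58 (WC) to 7.88 CPM (WA) with a median of 5.13 CPM, and in HT-1376 from 8.33 (WC) to 44.2 CPM (KA) with a median of 21.8 CPM. CAL-29 held 179 CPM in KK, 131 in KA, 39.7 in WK, 152 in WA and 39.5 in WC. All HT-1376 libraries were above all RT-112 libraries, and the CAL-29 WK and WC libraries were within the HT-1376 range with the other CAL-29 libraries above it. ASNS was higher by 1.70 ± 0.29 (SE, adjusted p = 1.67e-04) in HT-1376 and by 3.91 ± 0.31 (SE, adjusted p = 1.74e-07) in CAL-29, each against RT-112. Of the proline enzymes, ALDH18A1 was higher in CAL-29 than in RT-112 by 1.27 ± 0.24 (SE, adjusted p = 3.15e-04), or 0.50 (adjusted p = 0.0534) after TMM scaling, and PYCR1 did not pass the test, with -0.42 ± 0.35 (SE, adjusted p = 0.305). After TMM scaling PYCR1 was past the threshold and lower in CAL-29 than in RT-112, with -1.20 (adjusted p = 0.00591).

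Of the amino acid transporters, all but SLC1A5 were higher in both other lines than in RT-112, with SLC1A4, SLC3A2, SLC7A1 and SLC7A5 not called in HT-1376 and SLC7A1 not called in CAL-29 after TMM scaling. Of the 7 genes, 6 were higher and 1 lower in HT-1376 against RT-112 (2 and 1 after TMM scaling), 6 were higher and 1 lower in CAL-29 against RT-112 (5 and 1 after TMM scaling), and 2 were higher and 0 lower in CAL-29 against HT-1376 (0 and 0 after TMM scaling). The shares of all genes in the same order were 42.7%, 56.2% and 43.4% higher and 19.2%, 15.3% and 17.6% lower before that scaling. SLC7A11 (ENSG00000151012.13, chr4:138164097-138242349), the cystine carrier xCT, was lowest in RT-112 as well. The RT-112 libraries held from 0.48 (KC) to 1.32 CPM (KA) with a median of 0.655 CPM, and those of HT-1376 from 6.68 (WC) to 19.7 CPM (WA) with a median of 14.2 CPM. The CAL-29 values of SLC7A11 were 100.01 CPM in KK, 18.97 in KA, 6.63 in WK, 43.2 in WA and 6.41 in WC. It was higher by 3.43 ± 0.46 (SE, adjusted p = 2.09e-05) in HT-1376 and by 4.04 ± 0.49 (SE, adjusted p = 7.95e-06) in CAL-29, each against RT-112. SLC38A2, the carrier SNAT2 that responds to amino acid shortage, was higher by 1.87 ± 0.27 (SE, adjusted p = 4.99e-05) in HT-1376 than in RT-112. SLC7A5 and SLC3A2, which together form the leucine exchanger LAT1, were higher in CAL-29 than in RT-112 by 1.66 ± 0.34 (SE, adjusted p = 5.72e-04) and 1.67 ± 0.33 (SE, adjusted p = 4.63e-04). SLC1A5 (ENSG00000105281.12, chr19:46774883-46788594), the glutamine carrier ASCT2, went the other way. SLC1A5 was read at 706 (KC) to 1184 CPM (WA) with a median of 815 CPM in RT-112, and at 267 (KC) to 444 CPM (KA) with a median of 356 CPM in HT-1376. Among the CAL-29 libraries SLC1A5 was at 524 CPM in KK, 486 in KA, 378 in WK, 530.1 in WA and 431 in WC. Every RT-112 library was above every library of the other lines, and SLC1A5 was lower by 1.26 in HT-1376 (adjusted p = 1.29e-05) and by 0.95 in CAL-29 (adjusted p = 2.16e-04) on the log2 scale.

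All 13 genes of tRNA charging and export were higher in both other lines than in RT-112. Of the 13 genes, 13 were higher and 0 lower in HT-1376 against RT-112 (10 and 0 after TMM scaling), 13 were higher and 0 lower in CAL-29 against RT-112 (13 and 0 after TMM scaling), and 11 were higher and 0 lower in CAL-29 against HT-1376 (7 and 0 after TMM scaling). All genes tested were higher at 42.7%, 56.2% and 43.4% (29.8%, 37.2% and 30.7% after TMM scaling). Their median difference was 1.51 in HT-1376 and 2.70 in CAL-29 against RT-112, or 1.13 and 1.92 after TMM scaling, when LARS1, WARS1 and XPOT were not called in HT-1376. WARS1 (ENSG00000140105.18, chr14:100333790-100376805), tryptophanyl-tRNA synthetase, reached the highest level of the 40 genes. In RT-112 WARS1 ranged from 24.1 (WC) to 67.0 CPM (KC) with a median of 48.0 CPM, and in HT-1376 from 82.9 (KK) to 149 CPM (KA) with a median of 91.3 CPM. CAL-29 held 1332 CPM in KK, 905 in KA, 207 in WK, 1253 in WA and 195 in WC. All CAL-29 libraries were above those of HT-1376, by 2.50 ± 0.40 (SE, adjusted p = 1.27e-04). TARS1 (ENSG00000113407.14, chr5:33440696-33468091), threonyl-tRNA synthetase, ranged from 3.81 (WK) to 8.28 CPM (KC) with a median of 6.72 CPM in RT-112 and from 24.6 (WC) to 62.3 CPM (KC) with a median of 40.9 CPM in HT-1376, and stood at 152 CPM in KK, 37.9 in KA, 32.4 in WK, 106 in WA and 33.6 in WC in CAL-29. It was higher by 2.51 ± 0.29 (SE, adjusted p = 4.92e-06) in HT-1376 than in RT-112, and CAL-29 did not pass the test against HT-1376, with 0.72 ± 0.31 (SE, adjusted p = 0.0551). GARS1 (ENSG00000106105.15, chr7:30580533-30634033), glycyl-tRNA synthetase, ranged from 12.4 (KK) to 22.3 CPM (KC) with a median of 16.9 CPM in RT-112 and from 20.4 (WK) to 63.6 CPM (KA) with a median of 44.1 CPM in HT-1376, and stood at 404 CPM in KK, 107 in KA, 91.9 in WK, 269 in WA and 57.4 in WC in CAL-29, which was higher by 1.98 ± 0.36 (SE, adjusted p = 3.57e-04) than HT-1376. AARS1 and IARS1, whose promoter stretches are shown above, were higher in CAL-29 than in RT-112 by 3.20 ± 0.33 (SE, adjusted p = 1.92e-06) and 3.06 ± 0.53 (SE, adjusted p = 1.53e-04), and XPOT, the export receptor of tRNAs, by 2.33 ± 0.38 (SE, adjusted p = 9.70e-05). The 11 remaining cytosolic synthetase and scaffold genes had a median difference of 1.30 in CAL-29 against RT-112, with 8 higher and 2 lower (5 and 3 after TMM scaling). The 17 synthetases of mitochondria had a median of 0.34, with 8 higher and 3 lower (6 and 8). Beside both lists, 56.2% of all genes tested were higher and 15.3% lower (37.2% and 32.2% after TMM scaling). The difference between these lists was not tested.

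**Figure D3:**
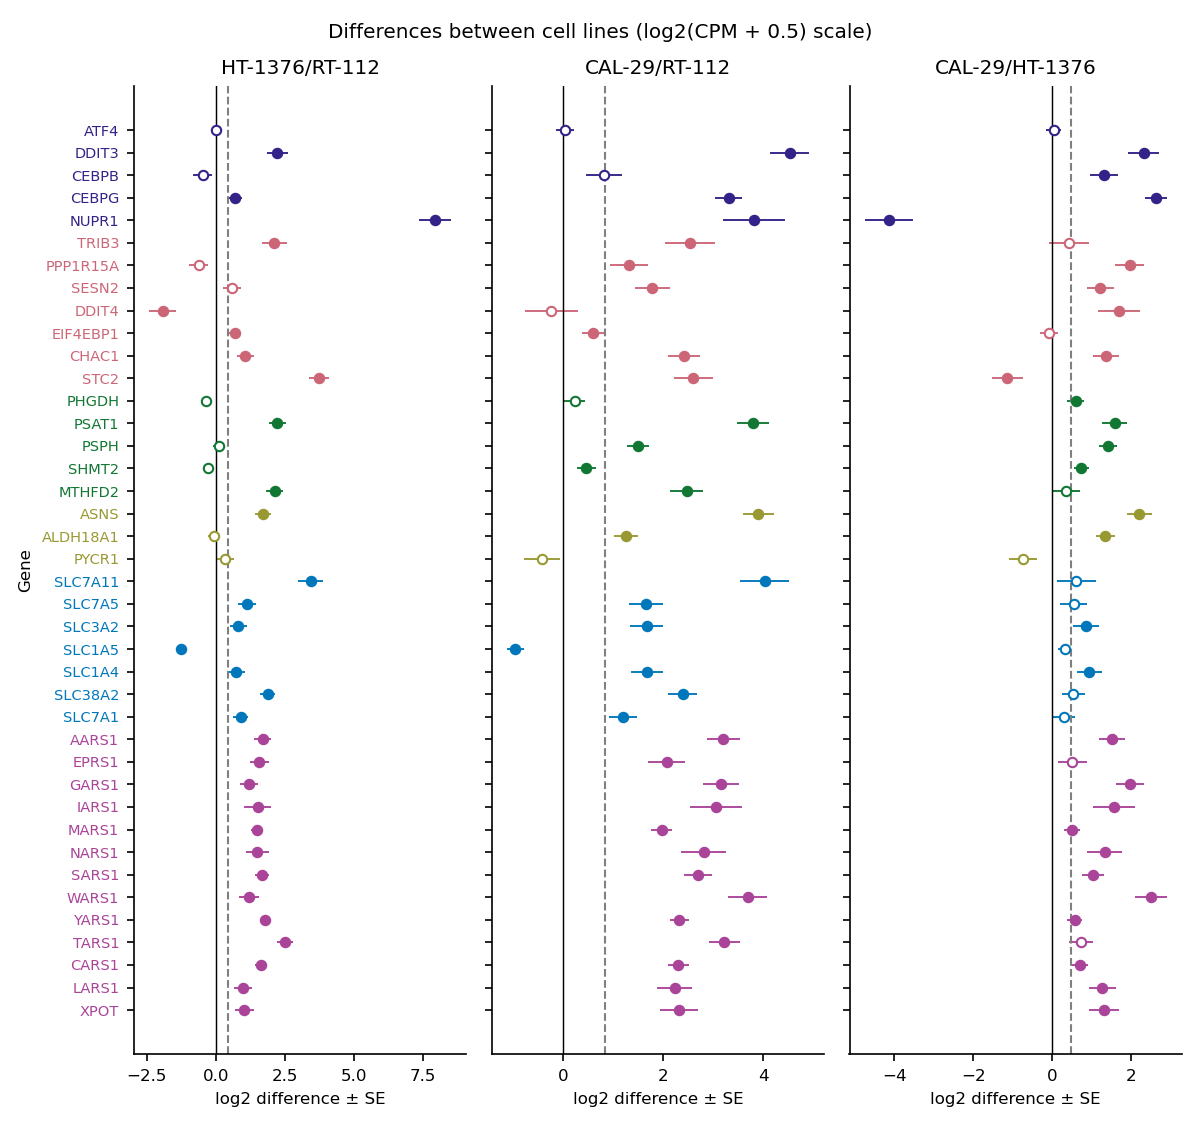
Difference between cell lines of each of the 40 genes, in log2(CPM + 0.5), with bars of ± SE and filled points where the adjusted p was under 0.05. The dashed line is the median of all genes tested (0.43, 0.84 and 0.47 from left to right), and ATF4 lies close to 0 in the 3 panels while all 13 genes of tRNA charging and export (lowest rows) lie right of the dashed line in the comparisons with RT-112.

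Other genes of the pathway differed between the lines as well. Of 15 tested genes of a further list of ATF4 response genes, 12 were higher and 0 lower in CAL-29 than in RT-112 (8 and 0 after TMM scaling), with SLC6A9, a glycine transporter, by 5.52 ± 0.40 (SE, adjusted p = 7.27e-08) and NIBAN1, a stress-induced protein, by 5.08 ± 0.43 (SE, adjusted p = 3.30e-07). The RT-112 libraries held 0 or 1 read of SLC6A9 and 14 to 20 reads of NIBAN1, so the size for SLC6A9 depends on the 0.5 CPM added. Of the 4 eIF2α kinases and GCN1, 4 were higher and 0 lower in CAL-29 than in RT-112, with equal counts after TMM scaling. EIF2AK4, which encodes GCN2, the kinase that senses uncharged tRNA, was higher by 2.42 ± 0.45 (SE, adjusted p = 3.68e-04) in HT-1376 and by 2.55 ± 0.48 (SE, adjusted p = 3.16e-04) in CAL-29, each against RT-112. Of the 8 genes of the ATF6 and XBP1 arm of the ER response, which holds chaperones that ATF4 does not chiefly control, 8 were higher in CAL-29 than in RT-112 (6 after TMM scaling), and of the 5 NRF2 targets, genes of the oxidative stress response, 3 were (2 after TMM scaling). Beside these lists, 56.2% of all genes tested were higher in CAL-29 than in RT-112 and 15.3% lower, or 37.2% and 32.2% after TMM scaling. The share of NRF2 targets that were higher lay near that of all genes. The ER genes were thus higher in CAL-29 beside the members, and their part in the differences was not tested.

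Within CAL-29 the members were highest in KK and WA, lower in KA and lowest in WK and WC. The mean log2(CPM + 0.5) of the 40 genes was 7.52 in KK, 7.29 in WA, 6.65 in KA, 5.73 in WK and 5.73 in WC, and KA was the lowest library for 3 members, among them NARS1 at 9.01 CPM. The ratio of the highest to the lowest library of a line, on CPM + 0.5, had a median of 4.67 over the 40 genes in CAL-29 against 2.28 over all genes tested, and exceeded 4 for 24 of the 40 genes against 17.6% of all genes. In RT-112 the median ratio was 1.93 against 1.62, and in HT-1376 2.36 against 2.02. The lowest of the 5 CAL-29 libraries was WK for 17 members and WC for 20, where WC was also the lowest for 43.4% and WK for 12.9% of all genes tested, and the highest was KK for 27 (29.6% of all genes) and WA for 12 (25.2% of all genes). The summed level of the 40 genes was 10779.7 CPM in KK, 7609 in KA, 3462 in WK, 10016 in WA and 4254 in WC, and the RT-112 and HT-1376 libraries held 2652 to 4246 and 3477 to 4935 CPM. The 8 genes of the ATF6 and XBP1 arm were high and low in the same libraries, with 13999 CPM in KK, 9262 in KA, 1182 in WK, 15491 in WA and 1927 in WC. HSPA5, which encodes the ER chaperone BiP, stood at 6321 CPM in KK, 3903 in KA, 373 in WK, 6795 in WA and 406 in WC. The median CPM of all genes tested was 23.7 in KK, 16.6 in KA, 19.9 in WK, 24.3 in WA and 14.3 in WC, and the part of the ER genes and of this shift in the levels of the members was not tested. Each variant of CAL-29 is 1 library, so a difference between them has no replicate check and cannot be told apart from a difference between cultures.

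**Figure D4:**
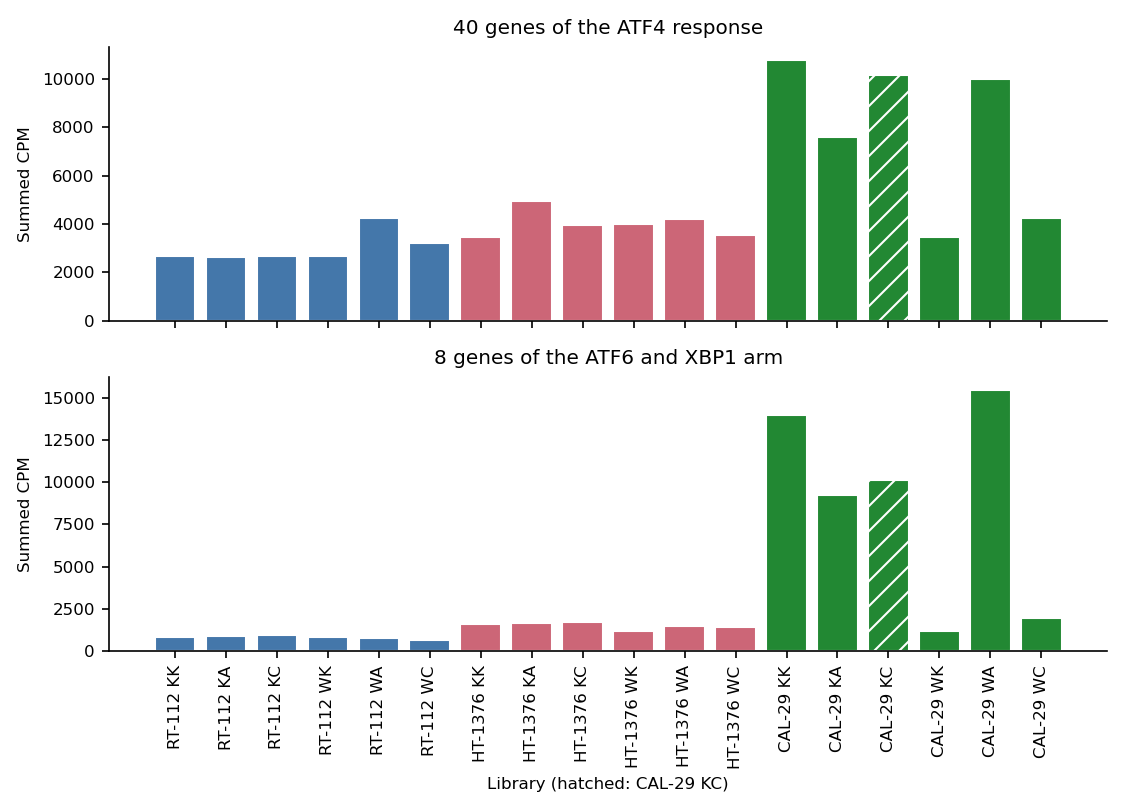
Summed CPM of the 40 genes (upper panel) and of 8 genes of the ATF6 and XBP1 arm of the ER response (lower panel) in each of the 18 libraries. In CAL-29 the KK and WA bars are the tallest of the 5 in both panels, KA is between and WK and WC are short, and the hatched bar is the library labelled CAL-29 KC.

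Against KK of the same line, the mean log2 change of the 40 genes in CAL-29 was -0.86 in KA, -1.79 in WK, -0.23 in WA and -1.78 in WC. These 4 values share the KK library. The medians of all genes were -0.21 in KA, -0.15 in WK, 0.03 in WA and -0.50 in WC. After TMM scaling the member means were -0.52 in KA, -1.59 in WK, -0.28 in WA and -1.24 in WC. In WK, 30 of the 40 genes were lower by more than 1 on the log2 scale, where 16.2% of all genes tested were, and after TMM scaling 28 were (11.2% of all genes). In WC, 28 were (32.2% of all genes), and 23 after TMM scaling (18.2%). None of the 40 was higher than in KK in either. By role, the median change in WK was -2.10 for tRNA charging and export, -2.13 for the asparagine and proline enzymes, -1.81 for feedback and growth control, -1.73 for the transcription factors, -1.44 for the transporters and -1.05 for the serine, glycine and folate enzymes. In WC the median was -2.16 for tRNA charging and export and -0.44 for the transporters, beside -0.50 for all genes. The mitochondrial synthetases had medians of -0.16 in WK and -0.37 in WC. IARS1, isoleucyl-tRNA synthetase, stood at 327 CPM in KK, 46.2 in KA, 18.8 in WK, 161 in WA and 14.3 in WC, the widest spread among the 13 genes of tRNA charging and export. PYCR1, the last enzyme of proline synthesis, stood at 141 CPM in KK, 114 in KA, 31.8 in WK, 158 in WA and 28.1 in WC. MARS1, methionyl-tRNA synthetase, stood at 286 CPM in KK, 251 in KA, 167 in WK, 268 in WA and 220.0 in WC, the narrowest spread of the 13. In KA, 7 of the 13 genes of tRNA charging and export were lower than in KK by more than 1 on the log2 scale, where 22.0% of all genes were (14.5% after TMM scaling), while TRIB3 was at 422 CPM against 432 CPM. WA, which carries AP-2α beside WWOX, was above WK in 39 of the 40 genes, with a mean change of 1.56 (1.31 after TMM scaling).

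The library labelled CAL-29 KC, which held the genes typical of HT-1376, was the highest of the 18 libraries in 12 members, among them ATF4 (364 CPM), DDIT3 (953 CPM), NUPR1 (999 CPM), TRIB3 (529 CPM), STC2 (108 CPM) and EIF4EBP1 (728 CPM). For the other genes followed in every library, it held CHAC1 at 76.5, ASNS at 157, PSAT1 at 114, PHGDH at 136, SLC7A11 at 25.6, SESN2 at 85.2, WARS1 at 487, GARS1 at 178, TARS1 at 81.7 and CEBPG at 61.8 CPM. Its HSPA5 was 4247 CPM, where the HT-1376 libraries held 157 to 464 CPM. Its mean change against CAL-29 KK was -0.28, which sets libraries of unlike cells side by side.

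**Figure D5:**
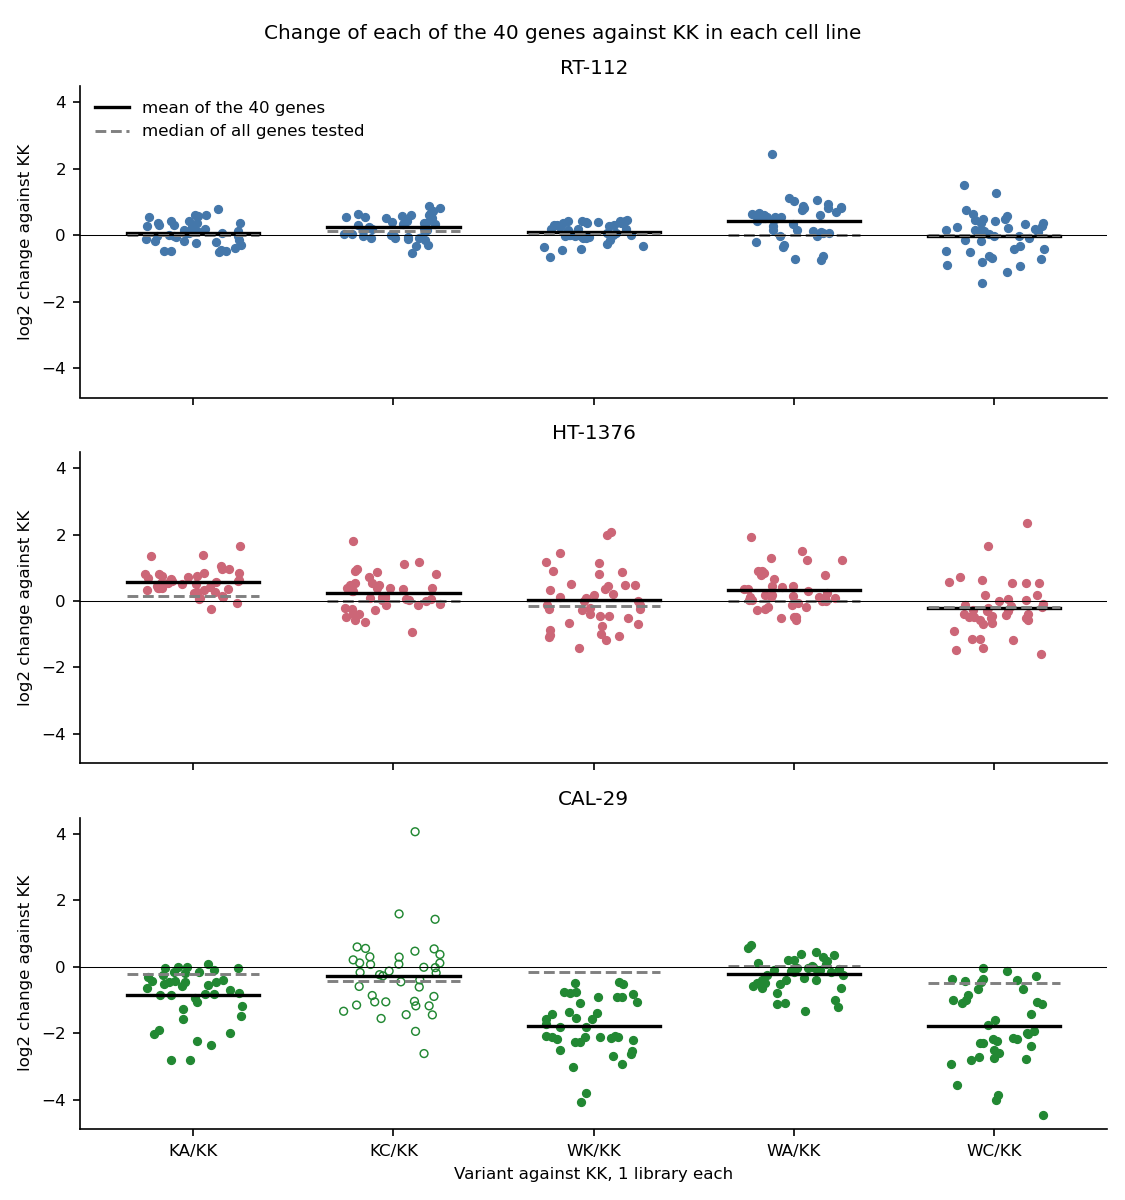
Change of each of the 40 genes against KK of the same cell line, in log2(CPM + 0.5), with 1 point per gene, a black bar at the mean of the 40 genes and a dashed grey bar at the median of all genes tested. The points of RT-112 and HT-1376 spread around 0 in most variants, those of CAL-29 WK and WC lie below 0 throughout, and open circles mark the library labelled CAL-29 KC.

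In RT-112 and HT-1376 the mean changes in WK and WC lay nearer to 0 than in CAL-29, while those in WA were above 0, where CAL-29 was below. The mean log2 change of the 40 genes in WK was 0.09 for RT-112 and 0.02 for HT-1376, in WC -0.01 and -0.22, in WA 0.43 and 0.32, in KA 0.08 and 0.57, and in KC 0.25 and 0.23. Over the 3 lines the mean was -0.56 ± 1.07 (SD, n = 3) for WK, -0.67 ± 0.97 for WC, -0.07 ± 0.73 for KA, 0.07 ± 0.30 for KC (the library labelled CAL-29 KC included) and 0.17 ± 0.35 for WA, so that the spread between lines was larger than each mean. Without CAL-29 the means were 0.06 for WK, -0.11 for WC, 0.32 for KA, 0.24 for KC and 0.37 for WA. After TMM scaling the means of RT-112 and HT-1376 were 0.06 and 0.16 in WK and 0.03 and -0.05 in WC. In WA they were then 0.43 and 0.32, in KA 0.03 and 0.41, and in KC 0.08 and 0.27. In the limma fit of the 6 variants over 18 libraries, none of the 40 genes passed the threshold in any variant, where 0% of all genes did (WK/KK 0%, KA/KK 0%, KC/KK 0%, WA/KK 0% and WC/KK 0%), and none had an unadjusted p under 0.05. No member passed by limma-voom, edgeR or DESeq2 either. Of all genes, 7 to 84 had an unadjusted p under 0.05 in a variant, DESeq2 called 1 to 9 and edgeR and limma-voom called 0. With the cell line as a block, which pairs the libraries of a line, 15 members had an unadjusted p under 0.05 in WC (10.7% of all genes) and 7 in WK (3.89% of all genes), and none passed after adjustment, with smallest adjusted p of 0.462 and 0.928.

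Some members lay on the same side of KK in each line without passing the test, and their log2 differences from KK of the same line follow. In WC, 13 of the 40 genes were below KK in the 3 lines and 0 above, where 23.0% and 6.90% of all genes were. The log2 difference of PSAT1 in WC was -1.46 for RT-112, -1.15 for HT-1376 and -1.59 for CAL-29. NARS1, asparaginyl-tRNA synthetase, whose promoter stretch is shown above, was at -0.18 for RT-112, -1.42 for HT-1376 and -2.74 for CAL-29, and SLC7A11 at -0.01 for RT-112, -0.58 for HT-1376 and -3.86 for CAL-29. The RT-112 value of SLC7A11 rests on 9 reads in WC against 10 in KK. In WK, 6 were below KK in the 3 lines and 0 above (all genes 15.6% and 9.99%). The share of members below KK in WK, 15%, lay near that of all genes. LARS1, leucyl-tRNA synthetase, was at -0.13 for RT-112, -1.03 for HT-1376 and -2.10 for CAL-29, EPRS1, the synthetase for glutamate and proline, at -0.32 for RT-112, -0.53 for HT-1376 and -2.26 for CAL-29, and IARS1 at -0.01 for RT-112, -0.28 for HT-1376 and -4.08 for CAL-29. The RT-112 value of IARS1 rests on 96 reads in WK against 95 in KK. In WA, 7 were above KK in the 3 lines and 1 below (all genes 12.9% and 9.82%). CEBPB was at 1.06 for RT-112, 1.22 for HT-1376 and 0.12 for CAL-29 in WA, XPOT at 0.95 for RT-112, 0.37 for HT-1376 and 0.65 for CAL-29, SLC7A5 at 0.32 for RT-112, 1.23 for HT-1376 and 0.35 for CAL-29, and CARS1, cysteinyl-tRNA synthetase, at -0.36 for RT-112, -0.19 for HT-1376 and -0.48 for CAL-29. In KA, CEBPB was above KK in the 3 lines (0.36 for RT-112, 0.96 for HT-1376 and 0.08 for CAL-29) and ALDH18A1 below (-0.46 for RT-112, -0.24 for HT-1376 and -0.69 for CAL-29), 1 of the 40 genes on each side (all genes 11.55% and 9.48%). In KC, read over RT-112 and HT-1376, 20 were above KK in both and 4 below (all genes 31.5% and 16.2%). DDIT3 was at 0.61 in RT-112 and 0.48 in HT-1376, CEBPB at 0.34 and 1.82, YARS1, tyrosyl-tRNA synthetase, at 0.55 and 0.29, SLC3A2 at -0.06 and -0.28, PHGDH at -0.01 and -0.13, and SLC1A5 at -0.33 and -0.49. A difference of -0.01 is hardly a change and is counted as below KK by its sign only. These contrasts share the KK libraries.

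To use all libraries for each transduced gene, the effects of WWOX, AP-2α and AP-2γ were also fitted over 17 libraries with a term for the cell line, with the library labelled RT-112 WA counted as AP-2α as in the WA means above. None of the 40 genes passed the threshold for WWOX (all genes 0%), AP-2α (0%) or AP-2γ (0%), and 4, 0 and 0 had an unadjusted p under 0.05 (all genes 12.3%, 1.53% and 2.63%), with no member called by limma-voom, edgeR or DESeq2, nor by limma when all RT-112 libraries were left out. The member medians were -0.26 for WWOX, 0.33 for AP-2α and -0.15 for AP-2γ, beside -0.08, 0.04 and -0.09 for all genes. The WWOX effect was then fitted within each line. In RT-112 no member passed (all genes 0%), where 4 members (7.84% of all genes) had an unadjusted p under 0.05, in CAL-29 none (all genes 0.73%), where 3 members (12.8% of all genes) did, and in HT-1376 only DDIT4 (all genes 9.75%), with none called by limma-voom or edgeR in RT-112 and CAL-29. The difference of the WWOX effect between the lines passed for no member (all genes 2.9%), and for DDIT4 alone after TMM scaling (4.09% of all genes, adjusted p = 0.0448). In CAL-29 the estimate rests on the change from KK to WK and that from KA to WA, which went apart, with mean changes of the 40 genes of -1.79 and 0.63. The medians of all genes were -0.15 and 0.29, and after TMM scaling the member means were -1.59 and 0.24. Without the AP-2α libraries, 2 members (1.8% of all genes) passed in CAL-29, IARS1 (-4.08) and SLC3A2 (-2.50), on the contrast of WK with KK, 1 library each, with the spread taken from the other lines.

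DDIT4 (ENSG00000168209.5, chr10:72273919-72276036), which encodes REDD1, an inhibitor of mTORC1 induced by several stresses, was the member that rose with WWOX in HT-1376. It stood at 23.9 CPM in KK, 26.9 in KA and 22.1 in KC, and at 103 in WK, 92.5 in WA and 76.9 in WC. The libraries with and without WWOX did not overlap, and the effect was 1.87 ± 0.45 (SE, adjusted p = 0.0343). The call was lost without the AP-2α libraries (adjusted p = 0.0507), without the AP-2γ libraries (0.176) and with the library labelled CAL-29 KC in the fit (0.0645), at sizes of 1.93, 1.92 and 1.87. In RT-112 DDIT4 stood at 103 (KK), 155 (KA) and 127 CPM (KC) without WWOX and at 100.2 (WK), 566 (WA) and 296 CPM (WC) with it, and in CAL-29 at 462 CPM in KK, 190.2 in KA, 95.1 in WK, 217 in WA and 80.3 in WC. These groups overlapped in both lines. The WWOX effect was 1.02 ± 0.45 (SE, adjusted p = 0.632) in RT-112 and -1.04 ± 0.55 (SE, adjusted p = 0.479) in CAL-29. In HT-1376, SLC38A2 stood at 129, 155 and 182 CPM without WWOX and at 64.2, 87.2 and 80.9 CPM with it, an effect of -0.997 ± 0.29 (SE, adjusted p = 0.0605) that passed after TMM scaling, at -0.85 (adjusted p = 0.0449), as did that of CEBPB, at 1.08 (adjusted p = 0.0478). The CEBPB groups overlapped, with 69.2, 135 and 245 CPM without WWOX and 277, 162 and 355 CPM with it. Among the kinases upstream, EIF2AK4 stood in HT-1376 at 30.3, 26.2 and 22.2 CPM without WWOX and at 3.27, 7.29 and 4.33 CPM with it, lower by 2.35 on the log2 scale (adjusted p = 0.00688), a call lost without the AP-2γ libraries (adjusted p = 0.0636). After TMM scaling EIF2AK1 (-0.83, adjusted p = 0.0324) and EIF2AK2 (-1.09, adjusted p = 0.0367) were lower there too, and EIF2AK3 was not called (-0.27, adjusted p = 0.719). EIF2AK4 was not called in RT-112 (0.35, adjusted p = 0.830) or CAL-29 (-0.11, adjusted p = 0.966) after that scaling. The same HT-1376 libraries with WWOX held the collagen gene COL1A2, a fibroblast marker, at 18.9 to 46.1 CPM against 1.49 to 4.37 CPM without, and the 5 markers of other cell types summed to 40.1 to 64.9 CPM against 7.5 to 18.1 CPM. The endothelial marker CDH5 went the other way, with 0.19 to 0.71 CPM with WWOX against 2.1 to 4.11 CPM without, and of the 4 of these markers that were tested 3 rose (COL1A1, COL1A2 and ACTA2) and CDH5 fell. CD14 was at 0.38 CPM or less in all 6 HT-1376 libraries. Their part in these results was not tested, and in bulk RNA fewer cells of a type and less RNA per cell cannot be told apart.

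In RT-112 the library labelled WA held several members at their highest level in that line. ATF4 stood there at 288 CPM against 144 to 220.2 CPM in the other RT-112 libraries, CEBPB at 390.5 against 187 to 278 CPM, PYCR1 at 163 against 80.2 to 125 CPM and TRIB3 at 44.05 against 18.8 to 33.2 CPM. PSAT1 and PSPH were not among these, with 4.47 and 19.1 CPM in WA against 7.81 and 29.6 CPM in KK. In that library 32 of the 40 genes were above KK, and 4 by more than 1 on the log2 scale, where 3.51% of all genes were. The values rest on 1 library, whose second transduction is in doubt from its TFAP2C level. Without RT-112 the mean change of the members in WA over the lines was 0.04 in place of 0.17.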

How the data were processed

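CAGE-seq libraries of 3 bladder cancer lines and 6 variants were analysed from 1 deposited table of CPM values per gene. The authors aligned the reads to hg38, using BWA and then HISAT2 2.0.5, clustered 5′ ends with RECLU and scaled the counts on genes to CPM before deposit. How start clusters were assigned to genes is not given in the sources used here. Gene IDs were paired with symbols for 16553 of the 16575 genes, and gene positions are those of GENCODE on hg38. Values in a library were multiples of 1 read, and 99.96% to 99.99% of them gave whole reads (within the rounding of the table), so reads were recovered for edgeR 4.0.16, DESeq2 1.42.0 and limma-voom. All 18 columns were used. 3 reads correspond to 0.158 to 0.213 CPM, which covers counting error only.

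The main test was limma 3.58.1 in R 4.3.3 on log2(CPM + 0.5) with a trended prior and Benjamini-Hochberg adjustment (threshold 0.05) over the 13022 genes with 5 CPM or more in at least 1 library. The fits were checked on simulated data. For the variants without a cell line term, the simulated lines shared the same means, so that check does not cover differences between lines. Variants were compared with KK over 18 libraries without a cell line term, and WWOX, AP-2 and cell line effects over 17 libraries without the library labelled CAL-29 KC. The same cell line carries the same replicate number, so the numbers pair the libraries. Deviations from variant means correlated at 0.742 to 0.915 among RT-112 libraries, 0.588 to 0.896 among HT-1376 libraries and 0.0363 to 0.881 among CAL-29 libraries (at least 0.663 without the library labelled CAL-29 KC). No libraries of a line were duplicates, since the closest pair differed by more than sampling noise. TMM scaling, other pseudocounts, filters and tests and left-out libraries were tried.

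The members and gene lists were chosen with earlier results of these data known. Levels in every library are given for 11 genes of the set and for members with the largest differences.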

Additional observations from a re-analysis of the deposited data

Results flagged for a closer look

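Among 160 sets of a gene and the libraries of a line, 4 held a library far from the others by Dixon's gap ratio on the log2 scale, which chance gives in about 1 of 20 sets. PHGDH stood at 207.6 CPM in RT-112 WA, with the nearest of the 6 libraries at 138 CPM (WC). EIF4EBP1 stood at 525.4 CPM in HT-1376 KA, with the nearest at 413.7 CPM (WK). SLC7A5 stood at 193.5 CPM in CAL-29 WK, with the nearest of 6 libraries at 610 CPM (WC). SLC1A4, a carrier of serine and alanine, stood at 14.48 CPM in CAL-29 WK, with the nearest at 35.6 CPM (KA). The CAL-29 sets include the library labelled KC.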

How the results depend on the processing

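The counts of members called between cell lines stayed within 1.5 times under all alternatives run, while their split into higher and lower moved with TMM scaling as given above. In CAL-29 against RT-112 the differences of EIF4EBP1 and SHMT2 turned below 0 without passing the test, at -0.18 and -0.33 after TMM scaling, -0.16 and -0.30 by limma-voom, -0.12 and -0.30 by edgeR and -0.21 and -0.38 by DESeq2, which all rescale the libraries, and ATF4 went from 0.04 to a called -0.75 after TMM scaling. WWOX within HT-1376 called 0 to 2 members when the libraries of 1 second transduction were left out (3.13% to 3.96% of all genes), 3 after TMM scaling (11.2% of all genes) and 0 with the library labelled CAL-29 KC, against 1. WWOX within CAL-29 called 0 to 2 in the same leave-outs (0% to 1.8% of all genes), against 0. The difference of the WWOX effect between lines called 1 after TMM scaling, against 0. The mean change of the members in KC turned from 0.07 to -0.61 without the library labelled CAL-29 KC, when KC is averaged over 2 lines and KK over 3, and was -0.02 to 0.24 without each line in turn. With cell line as a replicate block, and with TMM scaling beside the block and without the library labelled CAL-29 KC (chosen after seeing the data), no member was called in any variant against KK. Over the members called between cell lines, a call was lost without a change of sign in 67 pairings of gene and alternative for CAL-29 against HT-1376, 49 for HT-1376 against RT-112 and 18 for CAL-29 against RT-112, and the cause was not tested.

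Precision is limited by 1 library per line and variant. NUPR1 in RT-112, at 6 to 32 reads, has a difference that depends on the pseudocount, from 6.87 with 2 CPM to 8.58 with 0.05 CPM in HT-1376 against RT-112.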
